A study of Mus musculus with 8 samples.

Results

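The enzymes that write, copy and remove DNA methylation were read in the hearts of mouse embryos at E18.5 that carried either a weakened or a normal form of the histone demethylase Lsd1. The set was fixed by name as 9 genes: the methyltransferase genes *Dnmt1*, *Dnmt3a*, *Dnmt3b* and *Dnmt3l*, the maintenance cofactor gene *Uhrf1*, the dioxygenase genes *Tet1*, *Tet2* and *Tet3*, and the glycosylase gene *Tdg*. Every probe set of the array that the platform annotation gave to 1 of these genes alone was taken, which left 20 of the 45101 probe sets, for 8 of the 9 genes and of the 18194 genes that had a probe set of their own. A gene's probe sets are called here by the order of their brightness, which ranks them only for naming. *Tdg* had no probe set of its own, because each of its 3 probe sets is also annotated to the pseudogenes *Tdg-ps* and *Tdg-ps2*, and it is not reported further.

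The hearts came from 3 embryos homozygous for the 2lox allele (2lox/2lox) and from 5 wild-type embryos as controls, with 1 Affymetrix Mouse430 array per heart. In the 2lox allele, *Kdm1a* (*Aof2*), which encodes Lsd1, is floxed but not recombined and carries point mutations in the tower domain, so the protein is made but is less active. The labels also call these hearts Lsd1 knock-out, although no exon was deleted. The allele was present in every cell of the embryo from fertilization on, and RNA came from the whole heart, so fewer cells of a type and less RNA per cell cannot be told apart. The hearts are separate embryos, but the sources used here do not tell which were littermates. The p-values measure only the spread between these hearts.

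DNA methylation is placed on the cytosine of CpG, a C followed by a G. The Dnmt3a and Dnmt3b enzymes set it on unmethylated DNA, with Dnmt3l as a partner that has no catalytic activity of its own and is known mainly from germ cells. After each round of replication Uhrf1 binds the half-methylated DNA and brings in Dnmt1, which copies the mark to the new strand. The Tet enzymes oxidize methylcytosine, and Tdg cuts out the oxidized base, so that repair can put back a plain cytosine. Methylation of CpG-rich promoters keeps a set of germline genes silent in body tissues. In mouse embryonic stem cells Lsd1 also protects the Dnmt1 protein from degradation, a level of control that an RNA array does not read.

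The promoters of 4 of the enzyme genes are shown because their sequence differs in the features the enzymes themselves read and in a motif of replication genes. Windows of 300 bases, from 250 before to 50 after each start site (RefSeq, GRCm38.p6), were found for all 9 genes, 16 windows in all. *Tet2* had the most CpG, with 57, a number reached by 0.15% of the 32851 windows of all genes. The first start of *Dnmt3l* had 6, and 47.9% of all windows had that many or fewer. It was not the lowest of the 16, which was 2, in a window of *Dnmt1* that is not shown. The median over all windows was 7. In the pair of windows below, CpG stands in capitals. The *Tet2* window lies at chr3:133544341-133544640 on the minus strand and the *Dnmt3l* window at chr10:78042037-78042336 on the plus strand.
Tet2: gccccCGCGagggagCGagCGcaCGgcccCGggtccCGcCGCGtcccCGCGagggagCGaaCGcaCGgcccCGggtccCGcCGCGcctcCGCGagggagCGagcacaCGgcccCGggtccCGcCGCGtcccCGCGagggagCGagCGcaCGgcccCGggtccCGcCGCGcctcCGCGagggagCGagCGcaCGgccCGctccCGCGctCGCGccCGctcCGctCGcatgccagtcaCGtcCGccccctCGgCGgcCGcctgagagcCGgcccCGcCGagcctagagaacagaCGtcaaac
Dnmt3l: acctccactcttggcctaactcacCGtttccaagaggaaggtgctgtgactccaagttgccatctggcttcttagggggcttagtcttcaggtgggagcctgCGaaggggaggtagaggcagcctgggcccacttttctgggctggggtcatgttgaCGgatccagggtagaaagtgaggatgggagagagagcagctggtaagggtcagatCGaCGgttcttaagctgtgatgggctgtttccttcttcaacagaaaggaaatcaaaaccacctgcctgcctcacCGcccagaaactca

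E2F factors switch on genes of DNA replication, and their binding word was searched after the values of *Dnmt1* and *Uhrf1*, given further on, had been seen. The words searched on both strands were TTTCCCGC, TTTCGCGC, TTTGCCGC and TTTGGCGC, which overlap in letters with one another and with CpG. At least 1 word stood in 2.26% of all windows and in 2 of the 16 windows of the enzyme genes, 1 of *Dnmt1* and 1 of *Uhrf1*. The *Dnmt1* window at chr9:20952574-20952873 on the minus strand held 2 words, 1 of them as its reverse complement, and the *Uhrf1* window at chr17:56304063-56304362 on the plus strand held 1. Both windows had 33 CpG. A word is a match of letters and was not tested as a binding site. The words stand in capitals.
Dnmt1: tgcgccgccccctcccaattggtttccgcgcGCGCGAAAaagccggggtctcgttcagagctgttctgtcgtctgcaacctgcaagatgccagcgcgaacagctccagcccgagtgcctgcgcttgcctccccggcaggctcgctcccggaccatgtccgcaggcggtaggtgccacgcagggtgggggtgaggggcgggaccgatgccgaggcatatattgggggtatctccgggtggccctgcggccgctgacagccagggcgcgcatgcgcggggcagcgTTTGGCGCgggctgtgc
Uhrf1: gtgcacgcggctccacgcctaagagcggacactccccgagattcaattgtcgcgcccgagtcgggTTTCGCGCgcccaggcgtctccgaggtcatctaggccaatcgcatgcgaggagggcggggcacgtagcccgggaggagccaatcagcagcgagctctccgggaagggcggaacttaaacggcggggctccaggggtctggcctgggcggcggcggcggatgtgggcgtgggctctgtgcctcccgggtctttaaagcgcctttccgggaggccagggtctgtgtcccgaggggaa

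No enzyme gene passed the test in the 2lox/2lox hearts. The deposited values are log2 expression levels, so a difference of 1 is a doubling, and each probe set was fitted with limma as 2lox/2lox minus wild-type and p-values were adjusted after Benjamini and Hochberg over all 45101. At an adjusted p of 0.05 the fit called 36 probe sets, 0.0798% of all, and 0 of the 20 enzyme probe sets, whose lowest adjusted p was 0.283. At an unadjusted p under 0.05 it gave 6 of the 20, or 30.0%, in *Dnmt1*, *Dnmt3a*, *Uhrf1* and *Tet2*, against 10.9% of all probe sets. All 6 had higher values in the 2lox/2lox hearts, where 5.97% of all probe sets were higher at that p. The adjusted threshold was passed by 0.0621% of all probe sets in the higher and 0.0177% in the lower direction. The log2 fold changes of the 20 ran from -0.15 to 0.49, with 13 above 0 and 7 below, and their median was 0.10, against 0.00 over all probe sets, of which 48.5% lay above 0.

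The intervals show how large a difference the arrays still allow. For 18 of the 20 probe sets the 95% limits lay within a fold of 1.4 in either direction, the fold the methods name as a threshold, as they did for 91.5% of all probe sets. The 2 exceptions were the third of *Dnmt3a*, with an upper limit of 1.53-fold, and the second of *Tet2*, with an upper limit of 1.98-fold. No lower limit passed a fold of 1.4.

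**Figure D1:**
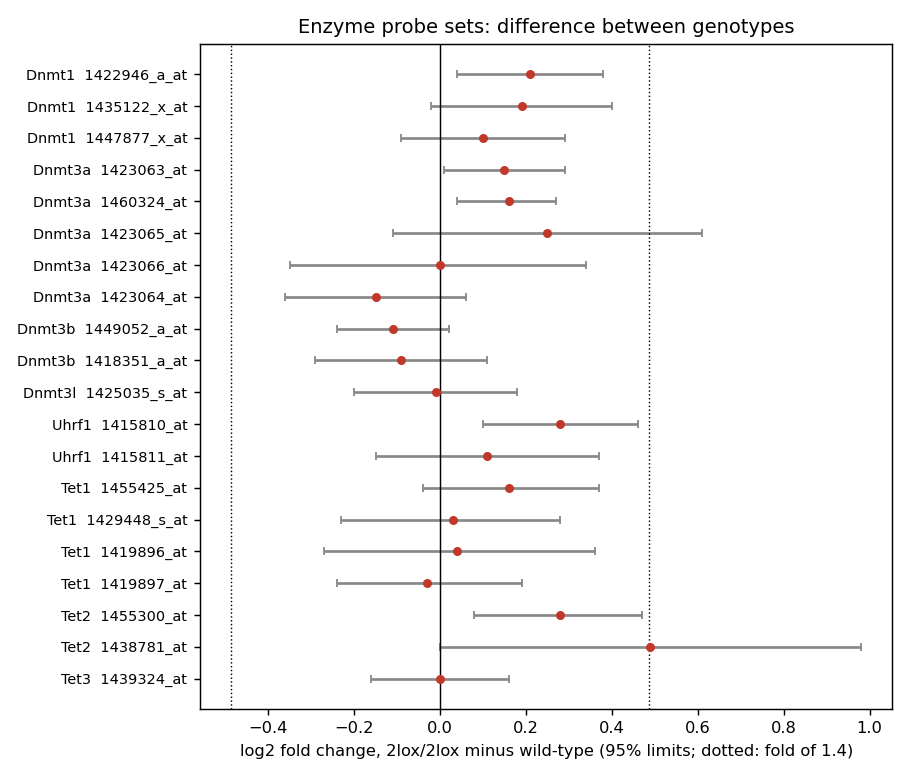
Log2 fold change of the 20 enzyme probe sets, 2lox/2lox minus wild-type, with 95% limits from limma (3 and 5 hearts), the probe sets of a gene running from the brightest at the top to the dimmest. The points lie between -0.15 and 0.49, and only the third probe set of *Dnmt3a* and the second of *Tet2* have limits that pass the dotted line at a fold of 1.4.

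*Dnmt1*, the maintenance methyltransferase gene, read higher in 2lox/2lox hearts 1 and 2 than in any wild-type heart, in all 3 of its probe sets, and did not in heart 3. The brightest had log2 values of 9.87, 9.77 and 9.54 in 2lox/2lox hearts 1, 2 and 3, against 9.56, 9.43, 9.56, 9.52 and 9.51 in the 5 wild-type hearts. Heart 3 thus lay inside the wild-type range. The means were 9.73 ± 0.17 (SD, n = 3) in 2lox/2lox hearts and 9.52 ± 0.06 (SD, n = 5) in wild-type hearts, a log2 fold change of 0.21 (standard error, SE, 0.08, 95% limits 0.04 to 0.38, adjusted p = 0.357). The second had 9.82, 9.87 and 9.43 in the 2lox/2lox hearts and 9.51, 9.47, 9.50, 9.56 and 9.55 in the wild-type hearts, so heart 3 was here the lowest of all 8. Its log2 fold change was 0.19 (SE 0.09, adjusted p = 0.509). The third had 8.20, 8.35 and 7.96 in the 2lox/2lox hearts, against 7.99 to 8.13 in wild-type hearts, with a log2 fold change of 0.10 (adjusted p = 0.752). In 2 of the 3 probe sets heart 3 lay below every wild-type heart.

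*Uhrf1*, whose product recruits Dnmt1 to newly made DNA, had the smallest p of the set, and its 2 probe sets did not show the same hearts high. In the brighter one the 2lox/2lox hearts had log2 values of 10.25, 10.23 and 10, against 9.94, 9.71, 9.86, 9.87 and 10.01 in the wild-type hearts. Hearts 1 and 2 lay above every wild-type heart, and heart 3 lay just under the highest. The means were 10.16 ± 0.14 (SD, n = 3) in 2lox/2lox hearts and 9.88 ± 0.11 (SD, n = 5) in wild-type hearts, a log2 fold change of 0.28 (SE 0.08, 95% limits 0.10 to 0.46, adjusted p = 0.283). In the dimmer one it was heart 3 that was high, with 8.28, 8.29 and 8.54 in the 2lox/2lox hearts and 8.37, 8.20, 8.07, 8.12 and 8.58 in the wild-type hearts. The groups overlapped fully there, and the log2 fold change was 0.11 (SE 0.12, adjusted p = 0.814).

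*Dnmt3a*, one of the 2 active de novo methyltransferase genes, held the only enzyme probe set in which the groups did not overlap. In its second probe set the 2lox/2lox hearts had log2 values of 9.58, 9.58 and 9.56, against 9.43, 9.45, 9.40, 9.35 and 9.46 in the wild-type hearts. All 3 lay above the wild-type range. The 2lox/2lox hearts lay wholly above it in 3.41% of all probe sets and wholly below it in 2.71%. The log2 fold change was 0.16 (SE 0.05, 95% limits 0.04 to 0.27, adjusted p = 0.331), a fold of 1.11. The brightest probe set had 9.73, 9.80 and 9.66 in the 2lox/2lox hearts, against 9.49 to 9.70 in wild-type hearts, with heart 3 inside that range. Its means were 9.73 ± 0.07 (SD, n = 3) in 2lox/2lox hearts and 9.58 ± 0.08 (SD, n = 5) in wild-type hearts, a log2 fold change of 0.15 (SE 0.06, adjusted p = 0.438).

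The other 3 probe sets of *Dnmt3a* lay above, at and below the wild-type mean and varied more among the wild-type hearts. In the third the 2lox/2lox hearts had 8.71, 8.58 and 8.30, and the wild-type hearts had 8.29, 8.36, 8.08, 7.93 and 8.72 (log2 fold change 0.25, adjusted p = 0.631). In the fourth, 2lox/2lox hearts had 7.95, 8.12 and 7.99, against 8.05, 8.09, 7.92, 7.58 and 8.47 in wild-type hearts (log2 fold change 0.00, adjusted p = 0.996). In both, wild-type heart 4 was the lowest and wild-type heart 5 the highest of the 8 hearts. In the fifth the 2lox/2lox hearts had 7.36, 7.44 and 7.40 and the wild-type hearts 7.30 to 7.76, with a log2 fold change of -0.15 (SE 0.09, adjusted p = 0.617). Where these probe sets lie along the transcripts was not analysed here, so a difference between transcripts and a difference between probes cannot be told apart.

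*Dnmt3b*, the other active de novo methyltransferase gene, had a mean below that of wild-type hearts in both probe sets, and neither passed. In the brighter one the 2lox/2lox hearts had log2 values of 6.07, 6.21 and 6.07, against 6.22, 6.19, 6.19, 6.29 and 6.22 in the wild-type hearts. Hearts 1 and 3 lay below every wild-type heart and heart 2 did not. The means were 6.11 ± 0.08 (SD, n = 3) in 2lox/2lox hearts and 6.22 ± 0.04 (SD, n = 5) in wild-type hearts, a log2 fold change of -0.11 (SE 0.06, adjusted p = 0.557). The dimmer one had 5.71, 5.55 and 5.41 in the 2lox/2lox hearts, against 5.48 to 5.82 in wild-type hearts (log2 fold change -0.09, adjusted p = 0.785).

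*Dnmt3l*, the partner without catalytic activity, stayed near the floor of the array. Its 1 probe set had log2 values of 4.25, 3.98 and 4.31 in the 2lox/2lox hearts and 4.15, 4.30, 4.05, 4.22 and 4.25 in the wild-type hearts. The lower quartile of all values was 4.21, where a signal cannot be told from background, and no detection calls were used. The log2 fold change was -0.01 (SE 0.09, 95% limits -0.20 to 0.18, adjusted p = 0.980), and because a level at background compresses differences the limits may be too narrow for the transcript itself.

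*Tet2* had the largest log2 fold changes among the dioxygenase genes. In its brighter probe set the 2lox/2lox hearts had log2 values of 8.09, 8.14 and 7.86, against 7.74, 7.70, 7.68, 7.68 and 7.96 in the wild-type hearts. Hearts 1 and 2 lay above every wild-type heart, while heart 3 lay below wild-type heart 5. The means were 8.03 ± 0.15 (SD, n = 3) in 2lox/2lox hearts and 7.75 ± 0.12 (SD, n = 5) in wild-type hearts, a log2 fold change of 0.28 (SE 0.09, 95% limits 0.08 to 0.47, adjusted p = 0.311). The dimmer one had 5.63, 6.55 and 5.33 in the 2lox/2lox hearts and 5.40, 5.39, 5.11, 5.44 and 5.38 in the wild-type hearts. Heart 2 alone stood 1.21 above the wild-type mean, heart 1 stood 0.29 above it and heart 3 at -0.02. The log2 fold change of 0.49 (SE 0.22, 95% limits 0.00 to 0.98, adjusted p = 0.458) therefore rested mostly on 1 heart, and without heart 2 it was 0.13 (adjusted p = 0.806).

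*Tet1* and *Tet3* did not pass in any probe set. The brightest of the 4 probe sets of *Tet1* had log2 values of 8.09, 8.19 and 8.04 in the 2lox/2lox hearts and 7.98, 7.90, 8.08, 7.68 and 8.08 in the wild-type hearts. The 2lox/2lox hearts all lay near or above the top of the wild-type range, which was widened by wild-type heart 4. The means were 8.11 ± 0.08 (SD, n = 3) in 2lox/2lox hearts and 7.94 ± 0.16 (SD, n = 5) in wild-type hearts, a log2 fold change of 0.16 (SE 0.09, adjusted p = 0.581). The other 3 probe sets of *Tet1* had log2 fold changes of 0.03, 0.04 and -0.03, with adjusted p from 0.954 to 0.966. *Tet3* had 1 probe set, with 5.25, 5.07 and 4.96 in the 2lox/2lox hearts, against 5.04 to 5.16 in wild-type hearts. Heart 1 lay above and heart 3 below the wild-type range, and the log2 fold change was 0.00 (SE 0.07, 95% limits -0.16 to 0.16, adjusted p = 0.993). The mean was 5.09 in both groups, close to the median of all values, 5.07, so background may limit what this probe set can show.

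**Figure D2:**
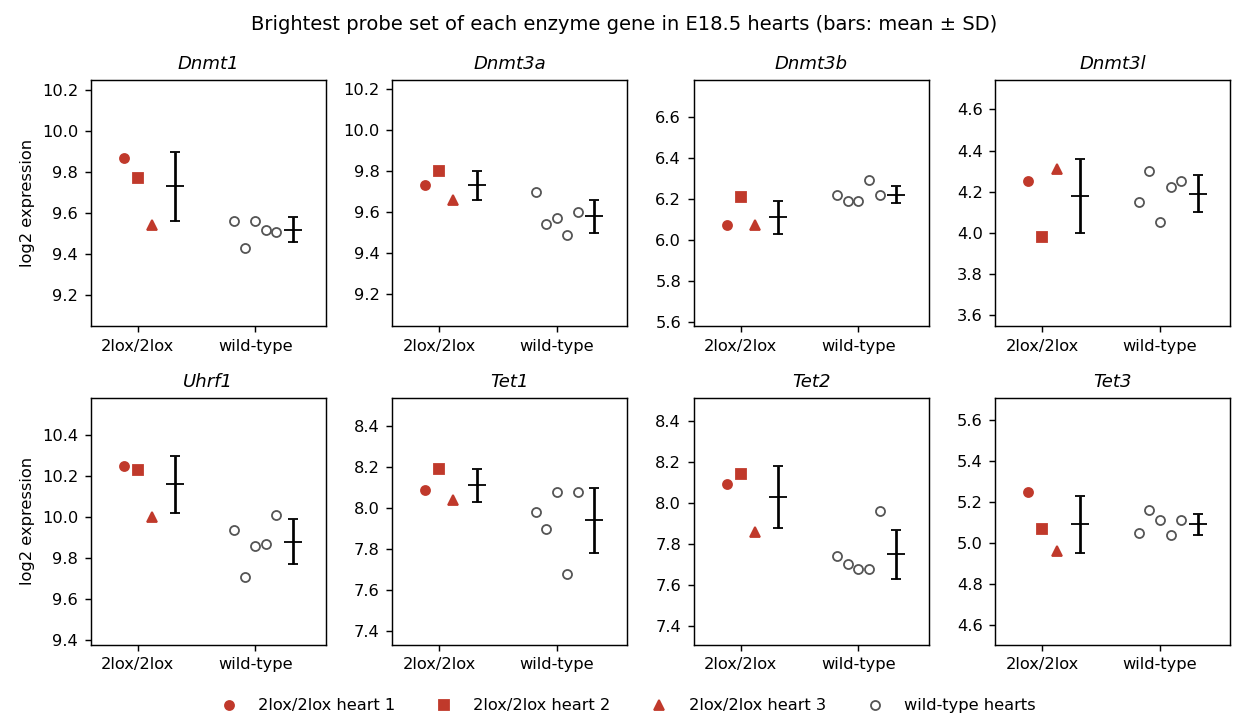
Log2 expression of the brightest probe set of each of the 8 enzyme genes, by heart. Filled red symbols are 2lox/2lox hearts 1 (circle), 2 (square) and 3 (triangle), open circles are the 5 wild-type hearts, bars are the mean ± SD, and each panel spans the same range of log2 units. In *Dnmt1* hearts 1 and 2 read 9.87 and 9.77 and heart 3 reads 9.54, inside the wild-type range.

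As a check that does not use a variance shared with other probe sets, the brightest probe set of each of the 8 genes was tested by exact permutation of the difference in means over the 56 ways to choose 3 of the 8 hearts, two-sided, where the smallest possible p is 0.0179. *Uhrf1* and *Tet2* had an exact permutation p of 0.0357 each, and *Dnmt1*, *Dnmt3a* and *Dnmt3b* had 0.0536 each. *Tet1* had 0.179, *Dnmt3l* 0.946 and *Tet3* 0.982 by the same exact permutation test. These are 8 unadjusted p-values of genes that were chosen with earlier results known.

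The 2lox/2lox hearts did not move together. Hearts 1 and 2 both lay above every wild-type heart in 9 of the 20 enzyme probe sets, from 5 genes, while 10.4% of all probe sets showed this. In 8 of the 9 heart 3 did not lie above the wild-type range. These were the 3 probe sets of *Dnmt1*, both of *Tet2*, and 1 each of *Uhrf1*, *Tet1* and *Dnmt3a*. Of all probe sets only 3.41% had all 3 2lox/2lox hearts above the wild-type range, against the 10.4% with hearts 1 and 2 there. Picking probe sets by hearts 1 and 2 by itself favours those in which heart 3 is lower, so these shares do not show a trait of heart 3. The same count was not made for the other pairs of 2lox/2lox hearts. The pattern was noticed in the values and is a description with no test.

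**Figure D3:**
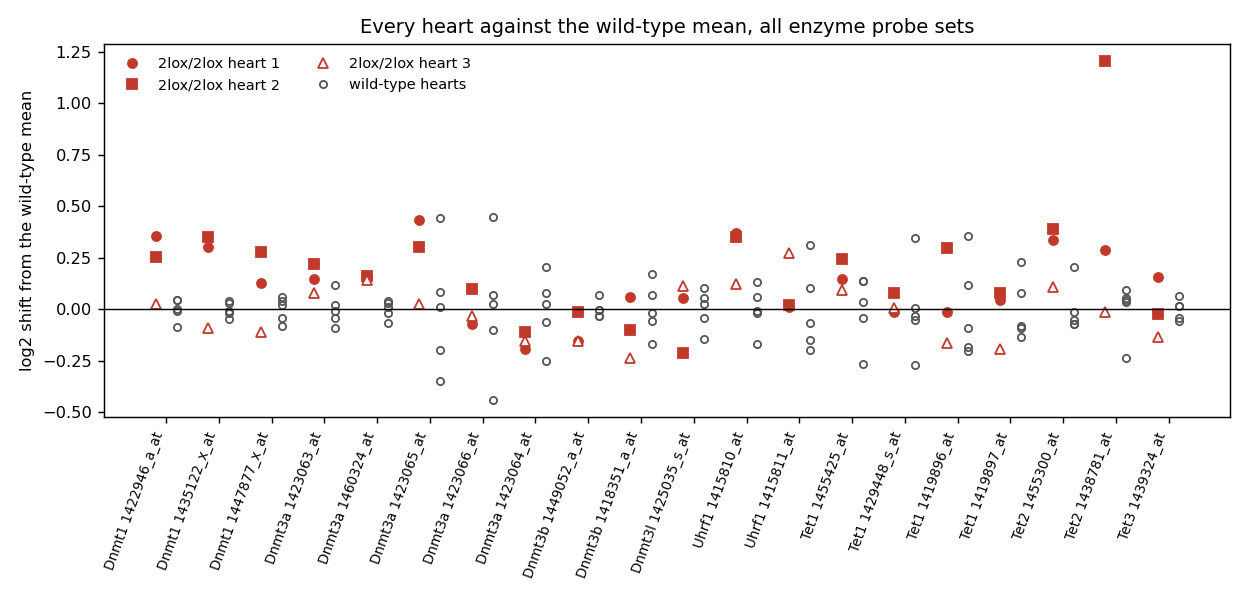
Shift of every heart from the wild-type mean, in log2 units, for the 20 enzyme probe sets. Filled circles and squares are 2lox/2lox hearts 1 and 2, open triangles are 2lox/2lox heart 3, and open grey circles are the wild-type hearts. In the second probe set of *Dnmt1*, hearts 1 and 2 stand 0.30 and 0.36 above the wild-type mean and heart 3 stands at -0.09.

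Without heart 3 more of the enzyme probe sets came close to the threshold. The second probe set of *Dnmt1* then passed, with a log2 fold change of 0.33 (SE 0.06, adjusted p = 0.0379), and was the 1 enzyme probe set among 797 called, 1.77% of all (1.02% in the higher direction). The brightest of *Dnmt1* had 0.30 (adjusted p = 0.0606), the brightest of *Uhrf1* had 0.36 (adjusted p = 0.0661) and the brightest of *Tet2* had 0.36 (adjusted p = 0.0763). At an unadjusted p under 0.05 8 enzyme probe sets were higher and 0 lower without heart 3, where 15.6% of all probe sets reached that p in either direction and 8.49% in the higher one.

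RNA quality set 2lox/2lox hearts 1 and 2 apart from the other 6 hearts. It was read as how far the 3′ controls of *Actb* and *Gapdh* stood above their 5′ controls, on average, in log2 units. This 3′ excess was 0.52, 0.50 and 0.33 in 2lox/2lox hearts 1, 2 and 3, against 0.32 to 0.38 in the wild-type hearts. With it as a covariate 0 of the 20 enzyme probe sets had an unadjusted p under 0.05 (0 also at an adjusted p under 0.05, limma), where 3.51% of all probe sets did. In the brightest probe sets the log2 fold change was then 0.06 (SE 0.08) for *Dnmt1*, 0.16 (SE 0.10) for *Uhrf1* and 0.15 (SE 0.11) for *Tet2*. The dimmer probe sets of *Dnmt1* changed sign, to -0.03 (SE 0.09) and -0.05 (SE 0.10). The dimmer one of *Uhrf1* rose to 0.27 (SE 0.15), and that of *Tet2* fell to 0.18 (SE 0.28). The *Dnmt3a* probe set whose groups did not overlap had 0.14 (SE 0.08), and 10 of the 20 lay above 0. As only 2lox/2lox hearts 1 and 2 had large differences, the covariate and the genotype cannot be told apart in those hearts.

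Sex, as read from *Xist*, differed within both groups. *Xist*, the RNA that coats the inactive X in female cells, read 10.88 in log2 units in 2lox/2lox heart 3 and 4.94 and 4.82 in 2lox/2lox hearts 1 and 2, against 10.59 in wild-type heart 2 and at most 4.91 in the other wild-type hearts. In the brightest probe set of *Dnmt1* the 4 wild-type hearts with low *Xist* had 9.51 to 9.56. There 2lox/2lox hearts 1 and 2 had 9.87 and 9.77. A limma fit with a sex score as a covariate gave 0.24 for *Dnmt1* (adjusted p = 0.169), 0.31 for *Uhrf1* (adjusted p = 0.0967) and 0.30 for *Tet2* (adjusted p = 0.186). These are log2 fold changes of the brightest probe sets, and no enzyme probe set passed in that fit. Each genotype had only 1 heart with high *Xist*, so the part of sex in the values of hearts 1 and 2 was not tested. Among the hearts with low *Xist* alone, 2 2lox/2lox and 4 wild-type, a comparison added after the data were seen, the brightest probe set of *Dnmt1* had a log2 fold change of 0.28 (adjusted p = 0.106), that of *Uhrf1* had 0.32 (adjusted p = 0.0937) and that of *Tet2* had 0.35 (adjusted p = 0.138). No enzyme probe set passed there, against 0.718% of all, 7 were higher at an unadjusted p under 0.05 and 0 lower, and 14.5% of all probe sets reached that p in either direction and 7.69% in the higher one. *Xist* and the 3′ excess divided the 2lox/2lox hearts in the same way. The 2 2lox/2lox hearts with low *Xist* had a 3′ excess of 0.52 and 0.50, while the 4 wild-type hearts with low *Xist* had 0.32 to 0.38. Genotype and RNA quality therefore cannot be told apart in that comparison. Between the 2 hearts with high *Xist* there is no test. 2lox/2lox heart 3 read above wild-type heart 2 in 10 of the 20 enzyme probe sets, in the brightest by 0.12 for *Dnmt1* (9.54 against 9.43), by 0.28 for *Uhrf1* (10 against 9.71) and by 0.16 for *Tet2* (7.86 against 7.70).

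**Figure D4:**
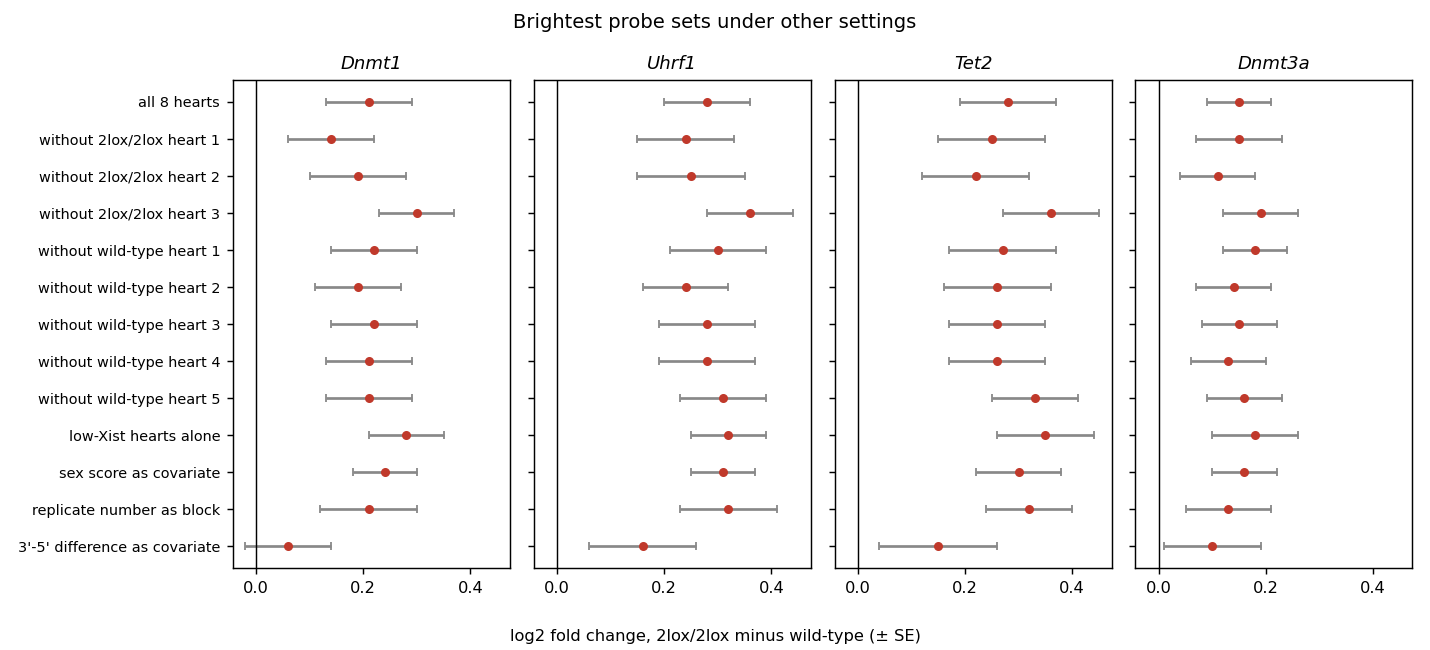
Log2 fold change, 2lox/2lox minus wild-type, with standard errors, of the brightest probe sets of *Dnmt1*, *Uhrf1*, *Tet2* and *Dnmt3a* with all 8 hearts, with each heart left out, and under 4 other settings. *Dnmt1* ranges from 0.06 with the 3′ excess as a covariate to 0.30 without 2lox/2lox heart 3.

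*Kdm1a*, the targeted gene, lay below the wild-type range in all 3 2lox/2lox hearts. The brighter of its 2 probe sets had log2 values of 9.44, 9.53 and 9.55 in the 2lox/2lox hearts, against 10.26 to 10.36 in wild-type hearts, a log2 fold change of -0.81 (SE 0.06, adjusted p = 5.15e-04). Its shifts from the wild-type mean were -0.87, -0.78 and -0.77 in 2lox/2lox hearts 1, 2 and 3, so heart 3 stood with the others. Array medians lay between 5.03 and 5.10. The markers of cardiomyocytes were bright in all hearts, with a mean log2 value of 13.29 to 13.38 over 12 genes in the 2lox/2lox hearts, against 13.25 to 13.36 in wild-type hearts.

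Cell content was read from marker lists, since *Dnmt1* and *Uhrf1* are most active in dividing cells. Over 20 measured proliferation genes the mean shift from the wild-type mean was -0.01, -0.01 and 0.01 in 2lox/2lox hearts 1, 2 and 3, and -0.09 to 0.06 in the wild-type hearts, and 0 of the 20 passed, with 1 higher and none lower before adjustment at 0.05 (limma). The replication helicase gene *Mcm3* had a log2 fold change of 0.22 (adjusted p = 0.415) and the proliferation marker *Mki67* had 0.15 (adjusted p = 0.487). *Ccne2*, the gene of a cyclin of S phase entry, had -0.65 (adjusted p = 0.520), with log2 values of 6.70, 8.44 and 8.38 in 2lox/2lox hearts 1, 2 and 3, against 8.30 to 8.67 in wild-type hearts. The mean of heart 1 rested on this gene. Without it, a choice made after its values were seen, the mean shift over the other 19 genes was 0.08, 0.00 and 0.01 in 2lox/2lox hearts 1, 2 and 3, so heart 1 lay above the wild-type range of -0.08 to 0.06. The part of dividing cells in the *Dnmt1* and *Uhrf1* values was not tested. Macrophage and myeloid genes lay higher in all 3 2lox/2lox hearts, by 0.35, 0.47 and 0.59, against -0.22 to 0.21 in the wild-type hearts, with 2 of 16 genes past the threshold, *Cybb* and *Lgals3*, where 0.0621% of all probe sets were called higher. All 16 lay above 0, as did 48.5% of all probe sets, and their median was 0.47. The part of macrophage and myeloid cells in the enzyme values was not tested. None of 12 thymus and lymphocyte, 11 endothelial, 11 fibroblast and matrix, 9 erythroid and 12 cardiomyocyte genes passed, with medians of 0.03, 0.10, 0.01, 0.05 and 0.01. At an unadjusted p under 0.05 (limma) there were 0, 3, 2, 0 and 2 of them, where 10.9% of all probe sets reached that p.

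The genes that work beside the enzymes did not pass either. Of 15 partners of maintenance methylation, among them the remodeller gene *Hells* and the clamp gene *Pcna*, 0 passed and 0 had an unadjusted p under 0.05 (limma), and the median log2 fold change was -0.03. The 3 with the smallest p were *Zfp57*, which protects imprints, with -0.13 (adjusted p = 0.470), the histone deacetylase gene *Hdac2* with 0.10 (adjusted p = 0.599) and *Dmap1*, a binding partner of Dnmt1, with -0.11 (adjusted p = 0.618). Of 15 genes of the methionine and one-carbon cycle, which supplies the methyl groups, 0 passed and 0 had an unadjusted p under 0.05 (limma), with a median of -0.01. *Mtrr* had 0.17, *Ahcyl1* 0.13 and *Shmt1* 0.23, with adjusted p from 0.524 to 0.547.

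Among 8 measured methyl-CpG readers 0 passed and 3 were higher at an unadjusted p under 0.05 (limma), as were 5.97% of all probe sets, with a median of 0.07. *Mbd4*, a reader that is also a glycosylase, had log2 values of 6.60 to 6.72 in the 2lox/2lox hearts, against 6.34 to 6.54 in wild-type hearts, with no overlap, as in the 3.41% of all probe sets that lay wholly higher, and a log2 fold change of 0.20 (adjusted p = 0.337). *Mbd6* had 0.25 (adjusted p = 0.284) and *Zbtb4* 0.25 (adjusted p = 0.434). Of 17 base excision repair and deamination genes 0 passed and 1, the scaffold gene *Xrcc1*, was higher at an unadjusted p under 0.05 (log2 fold change 0.17, adjusted p = 0.458), with a median of 0.05. The glycosylase gene *Nthl1* had -0.17 (adjusted p = 0.463) and the deaminase gene *Apobec1* had 0.09 (adjusted p = 0.678).

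Among 9 cofactors and regulators of the Tet enzymes 0 passed in limma, with 2 above and 2 below at an unadjusted p under 0.05, with a median of 0.02. At that p 5.97% of all probe sets were higher and 4.94% lower. *Cxxc4*, whose product binds Tet2 and lowers its protein level, had log2 values of 6.40 to 6.55 in the 2lox/2lox hearts, against 6.56 to 6.86 in wild-type hearts. The groups did not overlap, and the log2 fold change was -0.29 (SE 0.08, adjusted p = 0.253). *Ogt*, the sugar transferase gene whose product binds the Tet enzymes, had 9.59 to 10.01 in the 2lox/2lox hearts, against 9.39 to 9.55 in wild-type hearts, also without overlap, with a log2 fold change of 0.28 (adjusted p = 0.320). *Cxxc5* had 0.22 (adjusted p = 0.354). Groups did not overlap in 6.11% of all probe sets.

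Germline genes held silent by promoter methylation in body tissues were the one related list with calls. Of 18 measured genes 4 were higher, 0 lower and 14 did not pass, where 0.0621% of all probe sets were called higher, and the median log2 fold change was 0.07. These 4 were *Ddx4*, *Mael*, *Sycp3* and *Slc25a31*, all known from earlier results of these hearts when the list was written, so the count is no independent evidence. *Ddx4*, the germ cell RNA helicase gene, had log2 values of 6.39 to 7.68 in the 2lox/2lox hearts, against 3.75 to 4.34 in wild-type hearts (log2 fold change 2.87, SE 0.25, adjusted p = 0.00198). *Mael*, of the piRNA pathway, had 4.53 to 4.91 in the 2lox/2lox hearts, against 3.80 to 3.92 in wild-type hearts (log2 fold change 0.86, adjusted p = 0.00318). *Sycp3*, of the synaptonemal complex, had 4.79 to 5.16 in the 2lox/2lox hearts, against 4.11 to 4.26 in wild-type hearts (log2 fold change 0.86, adjusted p = 0.00562). Of the 18 genes 7 had a mean over all hearts under the lower quartile of all values, 4.21, where a change could be missed. The wild-type means of *Ddx4*, *Mael* and *Sycp3*, 4.06, 3.87 and 4.17, also lay under it, and that of *Slc25a31*, 4.93, did not. The log2 fold changes of those below it may be compressed. Over the 18 genes the mean shift was 0.49, 0.50 and 0.43 in 2lox/2lox hearts 1, 2 and 3, and wild-type hearts had -0.08 to 0.08. These means include the 4 genes already known to be high, so they cannot tell whether heart 3 was apart. Among the 2lox/2lox hearts, heart 3 had the smallest shift in *Ddx4* (2.33), *Slc25a31* (2.65) and *Sycp3* (0.61). In *Mael* it had the largest (1.04). The promoter windows of *Ddx4*, *Mael*, *Slc25a31* and *Sycp3* held 38, 24, 22 and 15 CpG. Those of listed genes that did not pass held from 3 (a window of *Tdrd1*) to 30 (*Stag3*), with 28 in *Dazl*. With the 3′ excess as a covariate 1 of the listed genes passed.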

How the data were processed

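Each of the 8 hearts was read on its own Affymetrix Mouse430 array. Values were deposited on the log2 scale, after normalization between arrays by the authors. The method of probe summary is not stated in the sources used here, and low values depend most on it. Limma, with no version, is named in the submitters' processing notes. Arrays have no depth, and their number limits the precision (median SD of a probe set 0.10 in 2lox/2lox and 0.10 in wild-type hearts).

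Groups came from the labels. The fit used lmFit and eBayes of limma 3.58.1 under R 4.3.3, two-sided, with Benjamini-Hochberg adjustment over 45101 probe sets and a threshold of 0.05. Symbols were updated by gene identifier to RefSeq (GRCm38.p6), which matched 99.4% of the 34958 single-gene probe sets. A listed gene was read in its brightest such probe set. Same-numbered hearts were not paired. The limma fit was tested on simulated data.

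The members and lists were chosen with earlier results of these data known. Genes named are the 9 enzyme genes, *Kdm1a*, up to 3 genes per list with the smallest p, and the 3 closest patterns of 2 enzyme genes. *Hells*, *Pcna*, *Slc25a31* and *Xist* were named outside this rule. The lists cover partners of maintenance methylation, methyl-CpG readers, base excision repair and deamination, Tet cofactors, the methionine cycle, germline genes, proliferation and 6 cell types. Alternatives were other moderation, scaling, filters, array weights, covariates for sex and RNA quality, the replicate number as a block, and each heart left out.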

Additional observations from a re-analysis of the deposited data

Results flagged for a closer look

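A lone wild-type heart stood apart in 2 of the 20 enzyme probe sets, both of *Tet2*. Dixon's test, at its 95% critical value, flags about 1 in 20 groups of 5 hearts by chance. In the brighter one wild-type heart 5 had a log2 value of 7.96, and the other wild-type hearts lay between 7.68 and 7.74. In the dimmer one wild-type heart 3 had a log2 value of 5.11, and the other wild-type hearts lay between 5.38 and 5.44. Groups of 3 hearts were not tested this way, so 2lox/2lox heart 2, with 6.55 in the dimmer one, was not part of it.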

How the results depend on the processing

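No enzyme probe set passed under any setting with all 8 hearts, and with each heart left out the number was 0 to 1. The number with an unadjusted p under 0.05, 6 with all hearts, was 3 to 8 with each heart left out (3 when 2lox/2lox heart 2 was dropped) and 0 with the 3′ excess of the control genes as a covariate. Over all probe sets 36 passed. This became 9 with that covariate, 0 with the replicate number as a block, 324 in the low-*Xist* hearts alone, and 17 to 797 with each heart left out (797 when 2lox/2lox heart 3 was dropped, 20 when 2lox/2lox heart 1 was, 17 when wild-type heart 1 was and 23 when wild-type heart 2, 3 or 4 was). The 4 calls in the related lists became 1 with that covariate and 3 to 6 with each heart left out. Same-numbered hearts did not deviate together (correlations 0.01, -0.08 and -0.05), so the numbers are not pairs. With the replicate number as a block 4 enzyme probe sets had an unadjusted p under 0.05, and *Kdm1a* had a log2 fold change of -0.82 (adjusted p = 0.103).

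*Dnmt1*, *Uhrf1*, *Tet2*, *Dnmt3a*, *Tet1* and *Dnmt3b* kept their direction in the brightest probe set under every setting. The dimmer probe sets of *Dnmt1* did not, with -0.03 and -0.05 when the 3′ excess of the control genes was a covariate. *Dnmt3l* (-0.01) was 0.02 with the block, 0.10 with the 3′ excess of the control genes as a covariate and -0.08 to 0.09 with each heart left out. *Tet3* (0.00) was 0.01 with array weights, 0.00 with the sex score as a covariate, 0.08 in the low-*Xist* hearts alone, -0.13 with the 3′ excess as a covariate and -0.08 to 0.06 with each heart left out. The cause was not tested. The dimmest probe sets, the 1 of *Dnmt3l* and the dimmest of *Tet1*, lay under the median of all values, 5.07, where background limits what the arrays can show. The 1 of *Tet3* lay just above that median.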

Other observations

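The closest patterns over the 8 hearts were sought for the enzyme gene with the smallest p and for the one with the largest SD, among 20353 probe sets of single genes above the median. Brightest probe sets were used, and the measure was Pearson's r over the 8 log2 values. It is given as a description with no p, since these are the highest of many. The hearts differed in genotype, in sex as read from *Xist* and in RNA quality, and the part of these in the likeness was not tested. For *Uhrf1* they were *Nav1*, *Celf1* and *Ptk2b*, with likeness values of 0.984, 0.980 and 0.978. For *Tet2* they were *Tacc1*, *Bcl2l11* and *Syt7*, with 0.993, 0.982 and 0.969. None of these genes passed the test between genotypes, with adjusted p from 0.219 to 0.418.

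Wild-type hearts 4 and 5 held the ends of the wild-type range in several enzyme probe sets. In the second probe set of *Tet1*, wild-type heart 4 had the lowest log2 value of the 8 hearts, 7.04, and wild-type heart 5 the highest, 7.66, as they did in 2 of the 5 of *Dnmt3a*.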
